A study of Mus musculus with 9 samples.

Results

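Of the 75936 open-chromatin peaks measured here, 1791 (2.36%) had their centre within 1000 bases of an annotated end of at least 2 different protein-coding genes. These shared-end peaks were chosen from the peak positions and the gene annotation alone, with no measured value. They made up 14.65% of the 12227 peaks that lay that close to any gene end. Most stood between 2 genes (1759 peaks), 31 touched 3 genes, and 1 peak in the Pcdhg protocadherin cluster on chromosome 18 touched 24. Together they covered the ends of 3293 of 21631 protein-coding genes in 1723 different gene sets, and 135 of the peaks shared their gene set with another of them.

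The data are bulk ATAC-seq profiles, in which a transposase cuts and tags accessible DNA, of D2A1-d, a mouse breast carcinoma cell line. There were 3 groups of 3 libraries. All cells were transduced with a hairpin: a non-targeting control (NTC, genotype given as WT), or shMed1 #2 or shMed1 #4 (genotype given as Med1 Knockdown), and the treatment entry of the labels is Untreated. Each hairpin is 1 construct in 1 line, no age, sorting or drug entry applies, and the labels call the libraries biological replicates without describing separate cultures. P-values therefore measure the spread between these libraries only. MED1 is a subunit of Mediator, the complex that carries signals from DNA-bound activators to RNA polymerase II.

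Genes packed head to head can share one nucleosome-free stretch from which RNA polymerase II starts in both directions. Such divergent, or bidirectional, promoters are common at housekeeping genes, are often rich in CG dinucleotides and often lack a TATA box. In compact regions a gene's start can also lie beside the end of its neighbour, and 2 genes can end side by side, where transcription terminates and no promoter need be present. One open region of these kinds cannot be credited to either gene, and accessibility is not transcription.

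Reads in peaks, worked out from the steps between values, ran from 34.8 to 53.7 M per library, and the median peak held 162 to 252 reads. The values below are the authors' normalized counts, reads divided by a size factor per library, for peaks that are all 501 bases long, so that levels compare peaks of equal length. Normalized totals were 41.24 to 41.52 M in NTC, 43.45 to 44.16 M with #2 and 43.05 to 43.58 M with #4. A hairpin acts on the transcript, so these libraries hold no direct check of Med1 loss. Of 13 markers of breast carcinoma cells, 6 had a gene-end peak, at up to 4576 normalized counts in NTC (Vim, an intermediate filament of mesenchymal cells), while the keratin genes Krt8 and Krt5, Epcam, Cdh1, Cdh2, Gata3 and Esr1 had none. Of 14 markers of blood, endothelial, fat and neural cells, 4 had one, at 65.6 to 156 normalized counts. None of these markers had a shared-end peak.

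Strand and sequence were read from a RefSeq promoter table (GRCm38.p6), which runs from 250 bases before to 50 bases after a gene's start. It gave a strand for 2710 of the 3293 genes. The 8 windows printed here show DNA at such peaks, for genes that recur below. In 3 the peak lost accessibility and in 2 it gained it. The others are a classical pair of chaperonin genes, the strongest peak, and an imprinted pair on which the hairpins had opposite effects. The Fau, Rad51c, Fancb, Xrcc3 and Fto windows lie within their peaks. Of 300 bases, 277 lie inside the peak at Rpl7a, 233 at Hspe1 and 194 at Peg3. Capitals mark matches on either strand to the NRF1 motif or to short motifs of other factors. These are CCGGAA for ETS factors, GGGCGG for SP1 and KLF factors, CCAAT for NFY, AANATGGC for YY1 and TGACGTCA for the cAMP response element. The others are the E-box with CACGTG, the TATA box read as TATAAA, the AP-1 site read as TGANTCA and the heat shock element read as GAANNTTC. Each window is written 5′ to 3′ on the strand of the gene named first, and the gene named second starts in the other direction.
Rpl7a with Med22, chr2:26910557-26910856, plus strand: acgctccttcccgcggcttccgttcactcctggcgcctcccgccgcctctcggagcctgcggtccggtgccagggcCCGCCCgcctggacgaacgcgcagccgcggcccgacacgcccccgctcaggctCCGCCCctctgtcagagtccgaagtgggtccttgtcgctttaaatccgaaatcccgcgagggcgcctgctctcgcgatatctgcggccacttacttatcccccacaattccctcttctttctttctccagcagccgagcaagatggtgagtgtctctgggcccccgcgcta
Fau with Mrpl49, chr19:6057697-6057996, plus strand: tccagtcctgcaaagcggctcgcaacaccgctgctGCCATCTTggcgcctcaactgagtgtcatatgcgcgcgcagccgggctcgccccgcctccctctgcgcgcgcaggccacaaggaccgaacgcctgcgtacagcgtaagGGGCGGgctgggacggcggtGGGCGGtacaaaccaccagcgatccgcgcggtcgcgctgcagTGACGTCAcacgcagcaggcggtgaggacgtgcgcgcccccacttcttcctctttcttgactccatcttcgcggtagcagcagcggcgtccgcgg
Rad51c with Tex14, chr11:87404457-87404756, minus strand: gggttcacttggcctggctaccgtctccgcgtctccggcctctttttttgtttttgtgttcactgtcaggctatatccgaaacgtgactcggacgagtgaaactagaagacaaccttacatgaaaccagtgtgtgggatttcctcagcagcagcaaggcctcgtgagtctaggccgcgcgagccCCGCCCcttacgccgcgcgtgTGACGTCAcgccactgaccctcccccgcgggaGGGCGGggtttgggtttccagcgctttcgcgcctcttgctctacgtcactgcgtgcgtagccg
Fancb with Mospd2, chrX:164980342-164980641, plus strand: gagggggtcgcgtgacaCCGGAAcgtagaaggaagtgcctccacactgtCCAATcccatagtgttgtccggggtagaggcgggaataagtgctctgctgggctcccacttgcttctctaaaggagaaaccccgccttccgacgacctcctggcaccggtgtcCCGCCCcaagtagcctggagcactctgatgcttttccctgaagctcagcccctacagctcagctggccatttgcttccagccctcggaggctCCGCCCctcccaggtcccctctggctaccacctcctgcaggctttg
Xrcc3 with Zfyve21, chr12:111813830-111814129, minus strand: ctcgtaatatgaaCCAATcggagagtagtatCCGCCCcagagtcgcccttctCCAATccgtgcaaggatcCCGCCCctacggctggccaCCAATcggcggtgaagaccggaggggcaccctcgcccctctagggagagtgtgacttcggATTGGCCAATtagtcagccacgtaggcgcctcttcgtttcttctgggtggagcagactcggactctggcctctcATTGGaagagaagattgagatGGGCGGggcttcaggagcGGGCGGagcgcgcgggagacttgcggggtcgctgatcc
Hspe1 with Hspd1, chr1:55087898-55088197, plus strand: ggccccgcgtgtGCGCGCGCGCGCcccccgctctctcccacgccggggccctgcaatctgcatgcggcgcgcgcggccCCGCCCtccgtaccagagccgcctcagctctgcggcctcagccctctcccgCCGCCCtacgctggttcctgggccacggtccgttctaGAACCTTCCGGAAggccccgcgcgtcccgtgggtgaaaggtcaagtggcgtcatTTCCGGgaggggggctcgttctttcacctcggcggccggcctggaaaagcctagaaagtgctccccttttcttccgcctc
Fto with Rpgrip1l, chr8:91313275-91313574, plus strand: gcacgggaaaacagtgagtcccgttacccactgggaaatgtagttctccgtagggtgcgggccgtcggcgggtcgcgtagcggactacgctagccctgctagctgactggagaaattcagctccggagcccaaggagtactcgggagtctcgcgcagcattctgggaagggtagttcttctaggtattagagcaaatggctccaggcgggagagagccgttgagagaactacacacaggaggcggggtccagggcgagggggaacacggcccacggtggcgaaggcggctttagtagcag
Peg3 with Usp29, chr7:6730370-6730669, minus strand: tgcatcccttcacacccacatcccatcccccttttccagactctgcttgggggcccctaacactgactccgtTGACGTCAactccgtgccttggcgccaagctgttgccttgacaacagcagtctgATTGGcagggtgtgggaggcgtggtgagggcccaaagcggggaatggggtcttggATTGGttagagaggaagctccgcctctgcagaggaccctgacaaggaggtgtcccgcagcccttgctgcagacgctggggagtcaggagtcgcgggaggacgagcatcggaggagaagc

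The windows are rich in G and C: 66.7% of bases at Rpl7a, 68.3% at Fau, 60.0% at Rad51c, 61.7% at Fancb, 61.3% at Xrcc3, 71.0% at Hspe1, 60.7% at Fto and 61.3% at Peg3. The Fau window holds 1 YY1 match, 1 CRE match and 2 SP1/KLF matches, and the Rad51c window 1 CRE and 2 SP1/KLF matches. The Xrcc3 window holds 6 CCAAT matches and 4 SP1/KLF matches. Hspe1 has a heat shock match that runs into an ETS match, with 3 ETS matches in all. None of the 10 motifs was found in the Fto window, although its peak was the strongest of all 1791. The NRF1 matches of the Hspe1 window and the CRE match of the Peg3 window lie outside the peaks. A match shows only that these letters occur.

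Peaks at shared gene ends were among the most open in these cells. In NTC their median was 1520.3 normalized counts, with 141 at the 10th and 3099 at the 90th percentile, beside 208 over all peaks, 1299 at peaks near the start of a single gene and 172 at peaks away from gene ends. By the mean over the 9 libraries, 68.7% of them and 63.1% of the single-start peaks exceeded 915 normalized counts, as did 13.4% of the peaks away from gene ends. Their openness followed which ends met. The 811 peaks between divergent starts (45.3% of the 1791) had a median of 1867, and the 21 peaks with both starts on one strand 1962. The 306 peaks that joined the start of one gene to the far end of another, the end where transcription stops, had 1242. The 158 peaks between the far ends of 2 genes had only 146, close to the 137 of peaks at a single far end. Of the rest, 32 peaks touched 3 or more genes and 463 involved a gene of unknown strand. In the plot of NTC levels by place, the far-end class lies well below the divergent class.

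**Figure D1:**
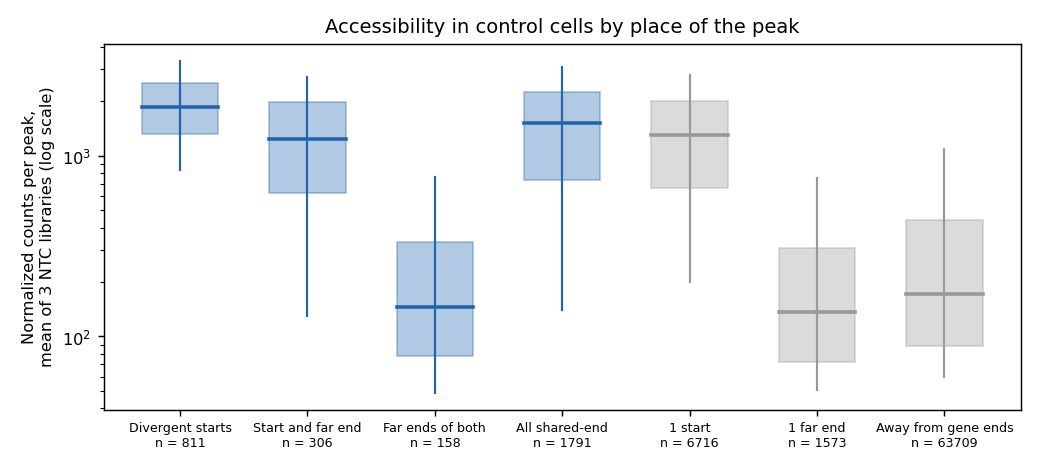
Normalized counts per peak, averaged over the 3 NTC libraries, on a log axis, for 4 sets of shared-end peaks (blue) and 3 sets of other peaks (grey). Thick lines are medians, boxes run from the 25th to the 75th percentile and thin lines from the 10th to the 90th. Peaks between divergent starts (median 1867) sit highest among the sets drawn, and peaks between far ends (146) lie beside those at 1 far end (137).

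With Med1 hairpins, more shared-end peaks lost than gained accessibility, by small amounts. In the mean of both hairpins against NTC, 614 of the 1791 peaks were lower (34.3%) and 276 higher (15.4%), by limma at an adjusted p below 0.05. Over all 75930 peaks tested, 39.8% were called, 17.7% as lower and 22.1% as higher. Peaks near the start of a single gene had nearly the same shares, 35.9% lower and 14.0% higher, and peaks away from gene ends the opposite balance, 14.8% lower and 23.6% higher. No test compares these classes. The median log2 fold change was -0.07 at shared ends, -0.08 at single starts and -0.01 over all peaks. Among the called shared-end peaks the median absolute log2 fold change was 0.22, and 1 peak passed a log2 of 1.

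Both hairpins gave that balance. With #2, 650 shared-end peaks were lower and 216 higher, a median of -0.09, where 19.5% of all peaks were called lower and 23.6% higher. With #4, 461 were lower and 284 higher, a median of -0.04, where 12.1% and 17.3% of all peaks were called. Both comparisons share the 3 NTC libraries. Without NTC replicate 3 the 461 lower calls with #4 became 299. Without the variance trend in limma, lower and higher calls were 399 and 159 in the mean of both hairpins, 411 and 101 with #2, and 182 and 125 with #4. The scaling of the libraries sets this split in part. Calls were 31.0% higher as deposited, but 12.4% higher with equal totals (131 higher, 923 lower), 9.39% with quantile scaling (101 and 975) and 10.1% with cyclic loess (108 and 963). Losses thus exceeded gains under each of the 4 scalings. With equal totals the median over all peaks moved down as well (given below). The larger excess of losses there cannot be read as particular to shared ends.

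**Figure D2:**
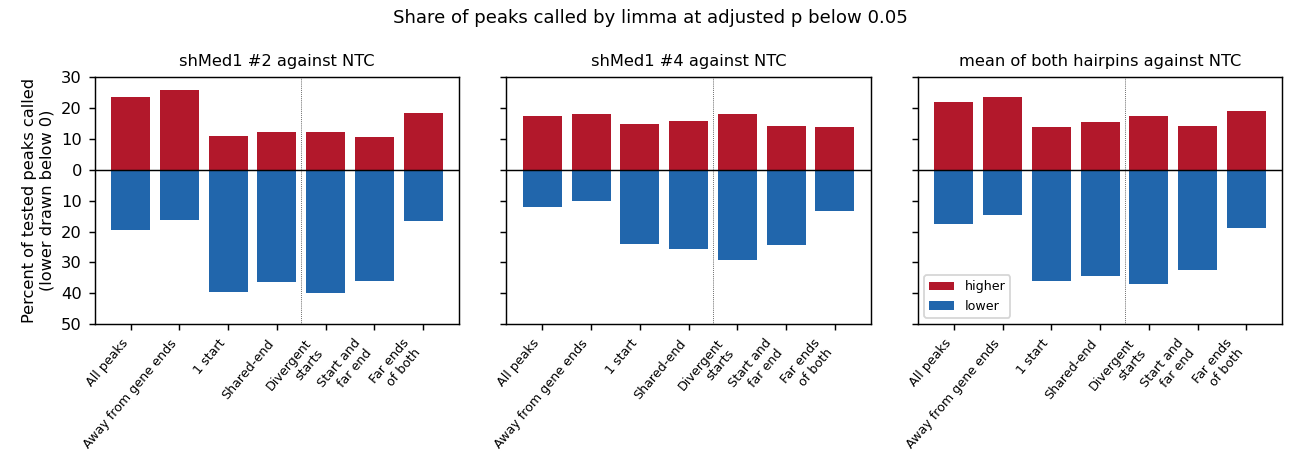
Percent of tested peaks that limma called higher (red, above 0) or lower (blue, below 0) for each hairpin and for their mean against NTC, with the arrangements of the shared-end peaks to the right of the dotted line. In the mean of both hairpins, 34.3% of shared-end peaks were lower and 15.4% higher, while 14.8% of peaks away from gene ends were lower and 23.6% higher.

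The share of the signal in these peaks was lower with both hairpins. Shared-end peaks held 6.88%, 6.97% and 7.03% of all normalized counts in the NTC libraries, 6.48%, 6.33% and 6.21% with #2, and 6.73%, 6.61% and 6.58% with #4. A share within a library does not depend on its size factor, and all 6 hairpin libraries lay below the 3 NTC libraries, those of #2 lowest. The share also depends on the other peaks, whose total was higher with the hairpins. Summed over shared-end peaks, the normalized counts were 2.86, 2.87 and 2.90 M in NTC, 2.86, 2.75 and 2.74 M with #2, and 2.93, 2.88 and 2.83 M with #4, so the sums with #4 lay around those of NTC (2.88 M on average in both). The mean shares at shared ends were 6.96 ± 0.075%, 6.34 ± 0.14% and 6.64 ± 0.079% (SD, n = 3). A drop in share was not particular to shared ends. Single-start peaks held 23.0%, 23.4% and 23.6% in NTC, 21.6%, 21.1% and 20.7% with #2, and 22.3%, 22.1% and 22.2% with #4. The median shared-end peak held 1496, 1522 and 1544 normalized counts in NTC, 1464.5, 1369 and 1349 with #2, and 1465, 1416 and 1430.0 with #4.

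The direction of change differed with the strength of a peak, at shared ends as at single starts. In the mean of both hairpins, of the 245 shared-end peaks with a mean of 500 to 1000 normalized counts over the 9 libraries, 124 were lower and 14 higher (median log2 fold change -0.15). From 1000 to 2000 it was 296 lower and 47 higher of 616 (-0.11), and from 2000 to 3000 it was 87 lower and 68 higher of 352 (-0.01). Under 500, 87 were lower and 28 higher of 363 (-0.10). The 215 peaks at 3000 or above leaned upward, with 119 higher and 20 lower (0.10). Single-start peaks had 6.59% higher and 49.5% lower at 500 to 1000 and 54.8% and 9.11% at 3000 or above, beside 5.71% and 50.6%, and 55.3% and 9.3%, at shared ends. Peaks away from gene ends were 89.6% higher at 3000 or above. At 2000 to 3000 the hairpins leaned opposite ways, with 48 higher and 110 lower for #2 and 80 higher and 50 lower for #4. The balance of shared-end peaks at 3000 or above did not hold under the other scalings: it was 64 higher and 44 lower with equal totals, 20 and 112 with quantile scaling, and 38 and 78 with cyclic loess. For peaks of 500 to 3000 the lower calls in the mean of both hairpins exceeded the higher ones under all 4 scalings. Some of these counts rested on single NTC libraries. Without NTC replicate 3 the 87 lower calls at 2000 to 3000 became 55, and without NTC replicate 2 the 28 and 14 higher calls under 500 and at 500 to 1000 became 15 and 9.

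**Figure D3:**
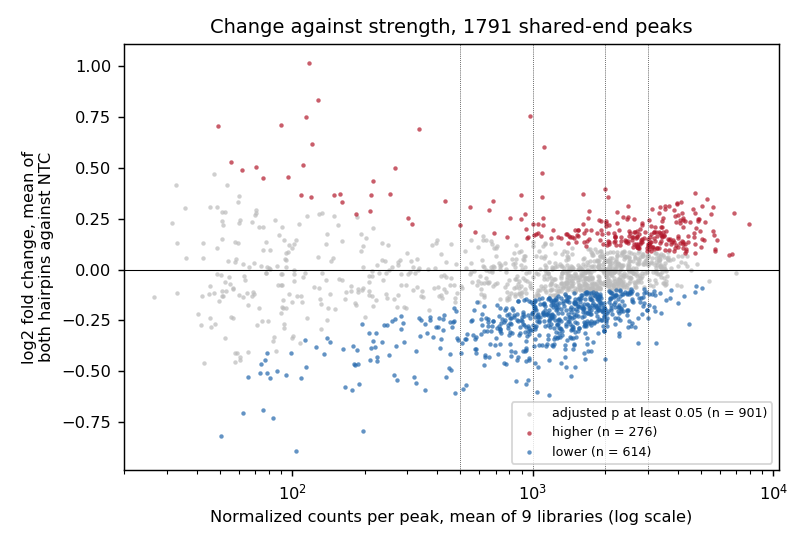
Log2 fold change of the averaged hairpins against NTC (vertical axis) for each of the 1791 shared-end peaks against its mean normalized count over the 9 libraries (horizontal log axis), with dotted lines at 500, 1000, 2000 and 3000. Higher calls (red, 276) gather at the strongest peaks and lower calls (blue, 614) mostly between 500 and 2000.

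Lower calls exceeded higher ones where a start was present. Between divergent starts 301 of 811 peaks were lower and 141 higher, and where a start met a far end 99 of 306 were lower and 43 higher, each with a median of -0.07. Of the 21 peaks with both starts on one strand, 10 were lower and none higher in this limma test. Peaks between far ends were split evenly, 30 lower and 30 higher of 158, much as peaks at a single far end were (15.8% lower and 16.9% higher of 1573), with a median of -0.02 and wider quartiles (-0.21 to 0.21). Without NTC replicate 2 their lower calls were 18, and with equal totals 39 were lower and 19 higher.

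The divergent pairs were close. The median distance between the annotated starts was 42 bases (quartiles -97 and 137), 446 of the 811 pairs had starts 0 to 300 bases apart, and in 282 the first transcribed parts overlapped, counted as a negative distance. Pairs 0 to 100 bases apart had 108 lower and 45 higher of 270 peaks, pairs over 100 and up to 300 bases apart 67 and 29 of 176, and pairs over 300 bases apart 28 and 18 of 83. Overlapping pairs had 58 lower and 29 higher of 164 up to 300 bases of overlap, and 40 and 20 of 118 beyond it. The medians of these 5 sets ran from -0.08 to -0.03.

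**Figure D4:**
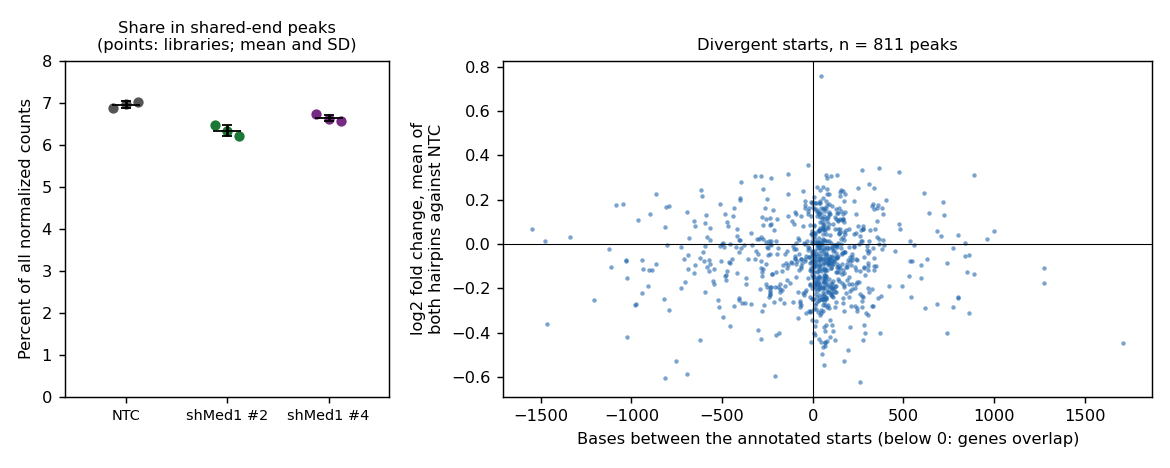
Left, percent of all normalized counts that fell in shared-end peaks, by library (points) with mean and SD, n = 3 per group; the NTC libraries (6.88 to 7.03%) lie above all hairpin libraries. Right, log2 fold change of the averaged hairpins against the distance in bases between the annotated starts for 811 peaks between divergent starts, where values below 0 mark overlapping genes; the median of all points is -0.07.

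At the border of the 1000-base rule, the 125 peaks whose second gene end lay over 900 bases away had a median of 913 normalized counts in NTC, with 25 lower and 21 higher. The 116 peaks just outside, up to 1100 bases away, had 520.0, with 27 lower and 16 higher.

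Among strongly open divergent promoters, one of the clearest losses lay between Kntc1, a mitotic checkpoint protein of kinetochores, and Rsrc2, an arginine- and serine-rich protein (chr5:123749340-123749841). Its normalized counts were 1411, 1499.7 and 1659 in NTC, 1107, 832 and 907 with #2 and 1054, 977 and 1085 with #4. All 6 hairpin libraries lay below the 3 NTC libraries. Peaks named for the largest rises and falls, here and below, had to show such a lack of overlap with NTC. At those peaks the separation follows from the choice and adds no support. With both hairpins averaged, the log2 fold change was -0.62 ± 0.06 (SE; limma, adjusted p = 1.31e-11), -0.69 ± 0.07 with #2 and -0.55 ± 0.07 with #4.

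Smc4, a condensin subunit that compacts mitotic chromosomes, shares 2 peaks with Ift80, a ciliary transport protein. At chr3:69004329-69004830 the counts were 1581, 1857 and 1983 in NTC, 1391, 1197 and 1139.6 with #2 and 1339.7, 1189.9 and 1265 with #4. Every hairpin library was lower than every NTC library, a change of -0.52 ± 0.06 on the log2 scale (SE, mean of both hairpins; limma, adjusted p = 2.18e-10). The neighbouring peak changed by -0.35 ± 0.05. The peak of Pcsk4, a proprotein convertase, and Reep6, a membrane-shaping protein of the endoplasmic reticulum, averaged 1353 ± 128 in NTC, 866 ± 40.6 with #2 and 911 ± 30.9 with #4 (SD, n = 3), a change of -0.60 ± 0.06 (limma, adjusted p = 2.76e-12).

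Cog4, a subunit of the Golgi tethering complex, overlaps Sf3b3, a component of the splicing factor SF3B, at their starts, a distance of -206 bases. Their peak (chr8:110846863-110847364) went from 464, 414 and 497 in NTC to 363, 301 and 276 with #2 and 293, 298 and 289 with #4. No hairpin library reached the NTC range, and the change was -0.60 ± 0.09 (SE; limma, adjusted p = 1.59e-07). Pawr, a pro-apoptotic protein, shares a peak with the predicted gene Gm40755. There the fall with #2 (-0.82 ± 0.09) was larger than with #4 (-0.39 ± 0.09), and the difference between the hairpins passed the test (limma, adjusted p = 0.000368).

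The largest falls by fold were at weak peaks. The peak of 1700008O03Rik and Shank1, a postsynaptic scaffold protein, held 146, 131 and 169.6 in NTC, 59.7, 79.5 and 63.2 with #2 and 87.1, 115 and 82.3 with #4. It fell by 0.89 on the log2 scale in the mean of both hairpins (limma, adjusted p = 3.37e-06), with #2 lowest. Peaks between the far ends of Bola1, a mitochondrial iron-sulfur assembly factor, and Sv2a, a synaptic vesicle protein (-0.82), of Arhgef38 and Ints12, an Integrator subunit (-0.73), and of Fam184b and Med28 (-0.70) also fell, from NTC counts of 70.7, 59.9 and 80.7 at Bola1 and Sv2a and 101.2, 122 and 114 at Arhgef38 and Ints12. The peak of Iffo1, a nuclear filament protein, and Nop2, an rRNA methyltransferase, changed by -0.69.

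By fold, 7 of the 10 largest gains lay between far ends. Peaks there were weak, with an NTC median of 146 beside 1867 between divergent starts. Their called changes were larger, with a median absolute log2 fold change of 0.37 beside 0.20. The shares called higher were close, 19.0% between far ends and 17.4% between divergent starts. Between the far ends of Fabp3, a fatty acid carrier, and Zcchc17, a nucleolar zinc-knuckle protein (chr4:130315624-130316125), the counts were 92.2, 53.5 and 64.6 in NTC, 105, 134 and 147 with #2 and 153, 140.1 and 164 with #4. All hairpin libraries exceeded all NTC libraries, as was required of peaks named for the largest gains. The change was 1.02 ± 0.15 on the log2 scale (SE; limma, adjusted p = 1.88e-07), and this was the single shared-end peak past 1. Sqstm1, the autophagy receptor p62, ends next to Mrnip, a partner of the MRN repair complex, and both peaks between their ends rose: 0.84 ± 0.13 at chr11:50199302-50199803 and 0.75 ± 0.15 at chr11:50200546-50201047.

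Other far-end peaks that rose included that of Cap1, an actin-binding protein, and Ppt1, a lysosomal thioesterase. This was a fairly strong peak, with 869, 808 and 795 in NTC, 1396, 1314 and 1429 with #2 and 1062, 1204 and 1141 with #4. Both hairpin groups lay above NTC without overlap and #2 above #4, and the change was 0.60 ± 0.05 (SE; limma, adjusted p = 7.36e-13). Peaks between Hnrnpa2b1, an RNA-binding protein, and Nfe2l3, a transcription factor (0.69 ± 0.09), Cyba, a subunit of NADPH oxidase, and Il17c, a cytokine (0.50 ± 0.10), and Chid1 and Tspan4, a tetraspanin (0.51 ± 0.14), rose as well.

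Rises at peaks with a start were rarer among the largest. Tmie, a subunit of the hair-cell transduction channel, and Als2cl start 47 bases apart, and their peak (chr9:110880731-110881232) held 699, 634 and 654 in NTC, 1253, 1301 and 1292 with #2 and 985, 957 and 995 with #4. The 3 groups did not overlap, with #2 highest. The change was 0.95 ± 0.06 with #2 (limma, adjusted p = 4.79e-17) and 0.56 ± 0.06 with #4 (adjusted p = 1.07e-09), and the hairpins differed by -0.39 ± 0.06 (#4 minus #2; adjusted p = 6.07e-06). Ak1, adenylate kinase, with St6galnac6, a sialyltransferase (0.62 ± 0.13), and Mtss2, an actin regulator, with Vac14, a scaffold of phosphoinositide synthesis (0.48 ± 0.05), each had a start beside a far end and rose.

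**Figure D5:**
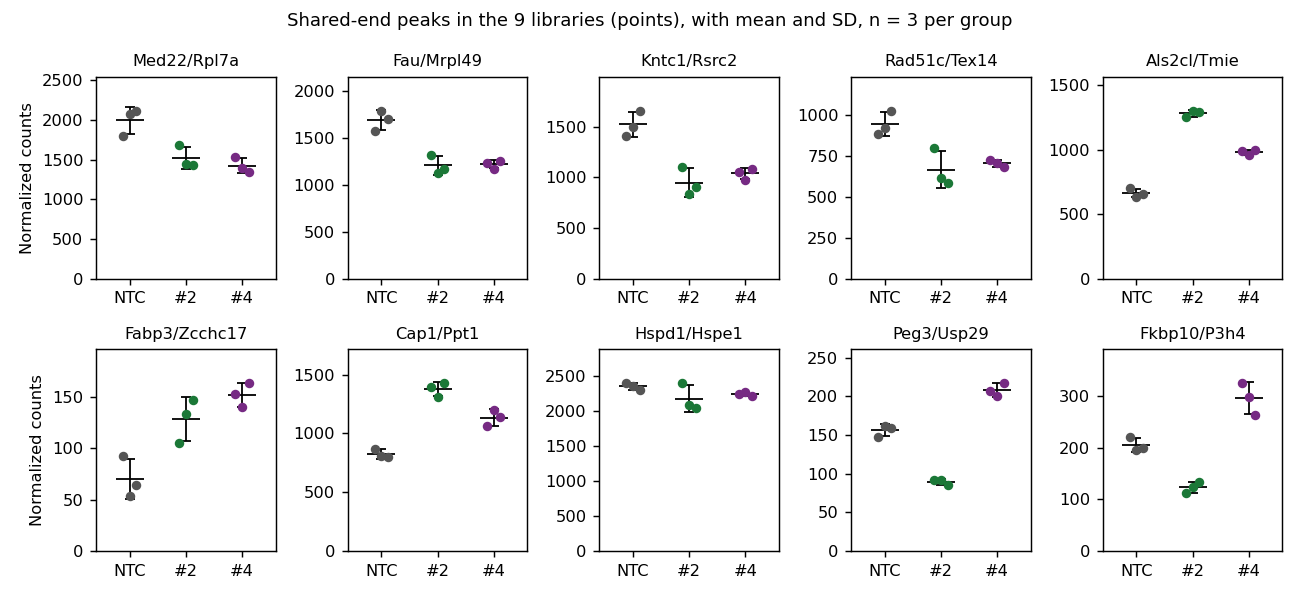
Normalized counts of 10 shared-end peaks in each library (points) with the mean and SD of each group, n = 3; every axis starts at 0. The first 4 peaks fell with both hairpins, the next 3 rose with both, Hspd1/Hspe1 did not pass the test, and Peg3/Usp29 and Fkbp10/P3h4 fell with #2 and rose with #4.

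Gene lists were counted next, and each count stands beside 34.3% lower and 15.4% higher over all shared-end peaks and 17.7% and 22.1% over all peaks. No list was tested against these shares, and strength was not matched. From 1000 to 2000 normalized counts, 48.1% of all shared-end peaks were lower and 7.63% higher. Most lists had NTC medians in that range at their shared-end peaks. Examples are cytosolic ribosomal (1670), mitochondrial ribosomal (1574), splicing factor (1954), and replication and mitosis genes (1807). Of 20 shared-end peaks of cytosolic ribosomal protein genes, 11 were lower and 1 higher in the mean of both hairpins (median -0.22, beside -0.01 over all peaks). Of 74 peaks at ends of these genes alone, 50 were lower and 2 higher, with the same median. Rpl7a encodes a protein of the large ribosomal subunit and diverges from Med22, a Mediator head subunit. Their peak held 1802, 2070.3 and 2116 in NTC, 1679.8, 1443 and 1434 with #2 and 1526, 1396 and 1339.8 with #4. The hairpin libraries were all below the NTC libraries, a change of -0.44 ± 0.05 on the log2 scale (SE; limma, adjusted p = 2.12e-09). Peaks named from a list, here, below and at Smc4 above, were mostly those with its smallest adjusted p each way. Their low p and their separation from NTC follow largely from that choice and add no support. Textbook pairs were named whatever their values.

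Fau, a ubiquitin-like fusion with a small-subunit protein, diverges from Mrpl49, a protein of the mitochondrial ribosome. The counts were 1580.2, 1793 and 1707 in NTC, 1320.5, 1129.8 and 1175 with #2 and 1236, 1172 and 1259 with #4. Again no hairpin library reached the NTC range (-0.48 ± 0.05; limma, adjusted p = 1.86e-10). The 1 riser was the peak between Rpl4 and Snapc5, a subunit of the snRNA-activating complex (0.16 ± 0.05; adjusted p = 0.0137), which became no rise under the other scalings, where none of the 20 peaks was called higher.

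Mitochondrial ribosomal protein genes had 39 shared-end peaks, 22 lower and 4 higher (median -0.15). Mrps18b with Ppp1r10, a nuclear regulator of protein phosphatase 1, went from 3502, 3982 and 3989 in NTC to 3275, 2804 and 2745 with #2 and 3148, 2854 and 3012 with #4 (-0.36 ± 0.04; limma, adjusted p = 3.08e-09). All hairpin libraries were lower. In the other direction, Mrpl41 with Pnpla7, a lysophospholipase, averaged 4358 ± 354 in NTC, 5339.8 ± 206 with #2 and 5480.0 ± 165 with #4 (SD, n = 3; 0.31 ± 0.04). Cfap70, a ciliary protein, with Mrps16 also rose (0.13 ± 0.04), but was at -0.03 with quantile scaling.

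Respiratory chain and ATP synthase genes had 37 peaks, 16 lower and 3 higher (median -0.12). Ndufs1, the largest subunit of complex I, and Eef1b2, an exchange factor of translation elongation, share a peak that averaged 1206 ± 119 in NTC, 792 ± 158 with #2 and 866 ± 35.6 with #4 (SD, n = 3), a change of -0.55 ± 0.07 (limma, adjusted p = 1.13e-08). Ndufa7 and Rps28, whose starts lie 10 bases apart, changed by -0.37 ± 0.06. Ndufb11, with the splicing regulator Rbm10 (0.17 ± 0.05), and Ndufs8, with the aldehyde dehydrogenase gene Aldh3b1 (0.15 ± 0.03; -0.02 with quantile scaling), were among the 3 risers, none of which stayed called under the other scalings.

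Aminoacyl-tRNA synthetase genes, whose enzymes charge tRNAs, had 18 peaks, 8 lower and 1 higher (median -0.06). Yars, the tyrosine enzyme, diverges from S100pbp, and their peak fell from 1433, 1617 and 1765 in NTC to 1275, 1163 and 1052 with #2 and 1181, 1192 and 1123 with #4 (-0.46 ± 0.06; limma, adjusted p = 3.91e-09). The riser, Tars2 beside the extracellular matrix gene Ecm1, changed by 0.16 ± 0.05.

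The lists of transcription and RNA processing can be read against the same shares of all shared-end peaks. Mediator genes had 7 shared-end peaks, 5 lower and none higher in this limma test (median -0.34, beside -0.13 for the 29 peaks at ends of Mediator genes alone). The 5 were those of Med22 (above), Med31 with 4930563E22Rik (-0.37 ± 0.05; limma, adjusted p = 1.89e-07), Med28 with Fam184b, and, named after their values were seen, Bysl/Gm20517/Med20 (-0.34) and Med29/Paf1 (-0.12). The latter 2 pair Mediator with Bysl, a factor of ribosome assembly, and Paf1, an elongation factor subunit. RNA polymerase and general transcription factor genes had 17 lower and 6 higher of 32 peaks (median -0.16): Polr1a, the largest subunit of RNA polymerase I, with the mitochondrial translation factor gene Ptcd3 fell by 0.43, and Gtf3c6, of TFIIIC, with Rpf2 by 0.39. Polr3g, an RNA polymerase III subunit, with Mblac2 (0.20 ± 0.04) and Taf10, a TFIID subunit, beside the end of Tpp1 (0.20 ± 0.05) rose.

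Splicing factor genes had 34 shared-end peaks, of which 19 were lower and 1 higher (median -0.16). Srsf2, a serine- and arginine-rich splicing factor, with the transporter-like gene Mfsd11 held 3048, 3196 and 3398 in NTC, 2492, 2291 and 2398 with #2 and 2775, 2485 and 2581 with #4. Every hairpin library was below NTC (-0.36 ± 0.04; limma, adjusted p = 6.65e-10). Hnrnpm, another RNA-binding splicing factor, with the ubiquitin ligase gene Marchf2 changed by -0.41 ± 0.05. The single riser was the weak far-end peak of Hnrnpa2b1 described above.

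Of 28 shared-end peaks of chaperone genes 10 were lower and 6 higher (median -0.07), and of 44 at ends of these genes alone 15 were lower and 5 higher. Dnajb4, an HSP40 cochaperone, with Fubp1, a regulator of Myc transcription, averaged 2420.0 ± 149 in NTC, 1817 ± 189 with #2 and 1751 ± 50.2 with #4 (SD, n = 3; -0.44 ± 0.05; limma, adjusted p = 2.14e-10), and Pfdn6, a prefoldin subunit, with Wdr46 changed by -0.40 ± 0.06. Peaks of endoplasmic reticulum chaperones were among those that rose. Hsp90b1, which encodes GRP94, shares a strong peak with Ttc41 that held 4983, 4479.9 and 4081 in NTC, 5308, 5524 and 5628 with #2 and 6131, 5894 and 5857 with #4; the hairpin libraries were all above NTC (0.35 ± 0.04; limma, adjusted p = 1.05e-10). Dnajb11, a cochaperone of BiP, with Tbccd1 changed by 0.26 ± 0.04.

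Proteasome genes had 12 shared-end peaks, 5 lower and 2 higher (median -0.16), while of 34 peaks at their ends alone 24 were lower and none higher in this limma test (median -0.19). Psmc2, an ATPase of the proteasome base, with Dnajc2 (-0.40 ± 0.06) and Psmd8, a lid subunit, with Catsperg1 (-0.26 ± 0.05) fell. Psme2, a subunit of the interferon-induced activator PA28, with the ubiquitin ligase gene Rnf31 (0.23 ± 0.04) and Psma4 with Hykk and AY074887 (0.13 ± 0.05) were higher.

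DNA repair genes, a group well known for divergent promoters, had 47 shared-end peaks, 14 lower and 9 higher (median -0.05). Rad51c, a protein of homologous recombination, and Tex14, a germ-cell bridge protein, had 884, 921 and 1024 in NTC, 798, 614 and 585 with #2 and 724, 707 and 681 with #4. The hairpin libraries were below NTC throughout (-0.47 ± 0.07; limma, adjusted p = 3.47e-07). Atr, the kinase that answers replication stress, with 1700065D16Rik changed by -0.43 ± 0.07.

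Peaks of other repair genes rose. Xrcc3, another recombination protein, with Zfyve21 held 3706, 3463 and 3419 in NTC, 4176, 4389 and 4622 with #2 and 4605, 4706 and 4204 with #4. All hairpin libraries were above NTC (0.33 ± 0.04; limma, adjusted p = 3.2e-10). Fancb, of the Fanconi anaemia core complex, with Mospd2 held 1789.7, 1664 and 1735 in NTC, 2028, 2181 and 2305 with #2 and 2244, 2352 and 2199 with #4, again without overlap (0.36 ± 0.04; adjusted p = 4.82e-09). With quantile scaling the repair list had 3 higher and 25 lower calls.

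Replication and mitosis genes had 21 shared-end peaks, 12 lower and 3 higher (median -0.13). Besides Smc4 above, 2 strong peaks rose as deposited: Ccna2, cyclin A2, with the ciliary gene Bbs7 (0.14 ± 0.03) and Pcna, the replication clamp, with Cds2 (0.15 ± 0.03). Both changed sign with quantile scaling, to -0.15 and -0.09.

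At clustered histone genes, 7 of 16 shared-end peaks were higher and 2 lower (median 0.03), while the 27 peaks at ends of these genes alone had 4 higher and 9 lower (median -0.04). The shared-end peaks had 8 higher and 1 lower for #4 and 4 and 3 for #2. H2ac11 and H2bc11, a divergent pair of H2A and H2B genes, held 1557, 1474 and 1452 in NTC, 1482, 1646 and 1760.4 with #2 and 2071, 1847 and 1942 with #4. The #4 libraries stood above all others, while those of #2 overlapped NTC. The change was 0.39 ± 0.06 with #4 (limma, adjusted p = 5.86e-07) and 0.12 ± 0.06 with #2 (adjusted p = 0.079), a difference of 0.26 ± 0.06 between the hairpins (adjusted p = 0.000433). H2ac6 with H2bc4 also rose (0.24 ± 0.05). H2ac15 with H2bc15, a weak peak, fell from 267, 291 and 259 to 164, 152 and 188 with #2 and 171, 151 and 121 with #4 (-0.79 ± 0.11). The median of the list turned to between -0.05 and -0.03 under the other scalings, with 4 higher and 3 lower calls with equal totals, 5 and 4 with quantile scaling and 3 and 4 with cyclic loess. Members of such near-identical families can share reads, and how the authors treated these is not given in the sources used here.

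Zinc finger genes had 33 shared-end peaks, 8 lower and 7 higher (median 0.00). Bcs1l, an assembly factor of complex III, with Zfp142 averaged 3640.0 ± 98.0 in NTC, 4302 ± 91.2 with #2 and 4322 ± 95.2 with #4 (SD, n = 3; 0.24 ± 0.03; limma, adjusted p = 5.68e-08), and Ccdc92 with Zfp664 changed by -0.37 ± 0.05. With equal totals 15 were lower and 2 higher. Integrin and extracellular matrix genes had 12 peaks, 3 lower and 4 higher (median -0.06). Of the 3 lower peaks, 1 was matched only by name, that of Efcab7 and Itgb3bp (-0.47 ± 0.08). Itgb3bp encodes a centromere protein, not an integrin. Col4a1 and Col4a2, the basement membrane collagen IV chains, held 791, 772 and 890.3 in NTC, 787, 578 and 668 with #2 and 584, 629 and 657 with #4. The #4 libraries and 2 of the #2 libraries were below NTC (-0.34 ± 0.07; limma, adjusted p = 0.000142). Talin 1 (Tln1), which links integrins to actin, with the transcription factor gene Creb3 (0.16 ± 0.04) and Col23a1 beside Phykpl (0.25 ± 0.04) were higher. A single shared-end peak belonged to the AP-1 and immediate early genes, and it was not called.

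Classical divergent pairs changed little, as shared-end peaks did in the median. Of 17 textbook pairs, 14 had a shared-end peak. Over the 17 peaks of these genes, 4 were lower and 1 higher (median -0.06, beside -0.07 over all shared-end peaks). The lower ones include a peak with another partner, that of Psmb8 and Tap1. Hspd1 and Hspe1, the mitochondrial chaperonin pair, held 2400.3, 2364 and 2304 in NTC, 2404, 2093 and 2044 with #2 and 2247, 2279.7 and 2219 with #4. In #2, 1 library lay just above the NTC range and the other 2 below it, and all #4 libraries lay below it, and the change was -0.09 ± 0.04 (SE; limma, adjusted p = 0.0914). Brca1 and Nbr1 (0.06 ± 0.03), Mcm4 and Prkdc (-0.05 ± 0.04), Surf1 and Surf2 (0.00 ± 0.05), Psmb9 and Tap1 (-0.01 ± 0.04) and Mrps12 and Sars2 (-0.06 ± 0.04) did not pass either. Col4a1 with Col4a2 (above) and Paics with Ppat, a pair of purine synthesis genes (-0.11 ± 0.04; adjusted p = 0.0258), were lower. Atm with Npat was higher (0.09 ± 0.04; adjusted p = 0.0427), but at -0.06 with quantile scaling.

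The strongest shared-end peak lay between Fto, an RNA demethylase, and Rpgrip1l, a protein of the ciliary transition zone (chr8:91313158-91313659). It held 7361, 7064 and 6962 in NTC, 8154, 8578 and 8129 with #2 and 8251, 8567 and 8310.4 with #4, all hairpin libraries above NTC (0.22 ± 0.03; limma, adjusted p = 4.78e-09). With quantile scaling the change was 0.00. The next in strength, Usb1 with Zfp319, averaged 7035 ± 99.0 in NTC, 7117 ± 336 with #2 and 6779 ± 157 with #4 (SD, n = 3) and was not called (-0.02 ± 0.03). The 24-gene peak of the Pcdhg cluster was weak and not called, at a mean of 165 normalized counts in NTC.

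The hairpins were compared with each other directly. Called in opposite directions against NTC were 5 shared-end peaks (0.279%), where 0.757% of all peaks were. In #4 against #2, 205 shared-end peaks (11.4%) were higher with #4 and 40 (2.23%) lower (median 0.05). Over all peaks 8.48% were called higher and 13.0% lower. Peaks near the start of a single gene leaned as shared ends did, with 13.1% higher and 2.49% lower (median 0.06). At shared ends, the 205 higher calls became 112 without shMed1 #2 replicate 2 and 134 without shMed1 #4 replicate 1. Without shMed1 #4 replicate 2 they were 111, and the 40 lower calls became 25. Without the variance trend in limma the counts were 36 higher and 23 lower. The largest difference upward, apart from peaks that each hairpin moved in opposite directions, was at Cavin4, a caveolar protein of muscle, beside Tmeff1. It held 139.7, 107 and 112 in NTC, 98.4, 113 and 111 with #2 and 230.5, 222 and 207 with #4. Only the #4 libraries stood apart at this peak, by 1.03 ± 0.14 over #2 (limma, adjusted p = 1.38e-07).

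Peg3, a paternally expressed zinc finger gene, and Usp29, a deubiquitinase gene, diverge from an imprinted promoter. Their peak held 148, 161 and 159.5 in NTC, 91.4, 92.1 and 84.6 with #2 and 207, 200.2 and 217 with #4. The 3 groups did not overlap, with #2 below and #4 above NTC. The change was -0.80 ± 0.13 with #2 (limma, adjusted p = 3.32e-06) and 0.41 ± 0.13 with #4 (adjusted p = 0.0166).

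The letters of divergent promoters were set beside those of single starts. A window was matched for 807 of the 811 divergent peaks and for 6374 single-start peaks, and the table held 32851 windows of 300 bases in all. Median G and C content was 63.3%, 61.7% and 52.7% in these 3 sets. The ETS letters CCGGAA stood in 42.4% of divergent windows, 27.1% of single-start windows and 14.9% of all windows. The NRF1 letters stood in 20.3%, 14.2% and 6.23%, and AANATGGC (YY1) in 12.6%, 8.68% and 6.05%. TATAAA was rarer, with 3.84%, 6.68% and 13.6%. Other motifs differed less between divergent and single starts: GGGCGG 70.4% and 68.9%, CCAAT 41.1% and 39.0%, TGACGTCA 4.09% and 3.62%, CACGTG 11.5% and 10.3%, TGANTCA 3.72% and 5.38%, and GAANNTTC 5.58% and 5.43%. ETS and NRF1 letters can overlap other G- and C-rich matches, and no test was made of these shares.

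Within the divergent set, CCAAT was singled out as the motif whose share differed most with the call, and its differences were not tested. It stood in 59.0% of the 139 windows at higher peaks, 34.0% of the 300 at lower peaks and 40.2% of the 368 not called. Peaks with CCAAT were stronger, with an NTC median of 2128 normalized counts beside 1693 without. Of 332 peaks with CCAAT, 82 were higher and 102 lower, and of 475 without it, 57 and 198. Within classes of strength, 30.5% of the peaks with CCAAT and 13.2% of those without were higher at 2000 to 3000 normalized counts. At 1000 to 2000 these shares were 7.08% and 5.16%, at 3000 or above 55.6% in both, and under 1000 they were 4.76% and 1.96%. Lower calls were 22.9% with CCAAT and 27.4% without at 2000 to 3000, and 46.9% and 51.2% at 1000 to 2000. At 3000 or above they were 6.94% and 11.1%, and under 1000 47.6% and 52.9%. Median log2 fold changes were -0.01 and -0.03 at 2000 to 3000, and -0.11 and -0.12 at 1000 to 2000. Under 1000 the order was reversed, with -0.20 with CCAAT and -0.18 without, and at 3000 or above both were 0.10. The balance of shared-end peaks at 3000 or above changed under the other scalings (above).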

How the data were processed

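The authors' deposited signal is a table of normalized counts per peak for 9 libraries, reads per peak after division by each library's size factor, under a name that refers to DESeq2. Per the submitters' processing notes, Trim Galore, BWA, MACS2 and featureCounts from Subread were used with mm10 (GRCm38). Not given in the sources used here were versions, duplicate removal, the treatment of reads with several matches, peak merging and the transposase offset. All values lay within 0.01 steps of a whole multiple of a step per library, from which reads per peak were worked out.

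Values were taken to log2 after adding a pseudocount of 1 and fitted with limma 3.58.1 (trend; R 4.3.3) over all 75930 peaks with a mean of at least 10, with 3 group means. Two-sided p-values were adjusted across all peaks by Benjamini-Hochberg within each contrast and called below 0.05. Errors are limma's standard errors (SE) or SDs with n = 3.

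Peak centres were compared with RefSeq protein-coding gene ends. Of several ends of a gene the nearest one set the arrangement. Strand came from the promoter table, whose start can differ from the outermost annotated one. Coordinates are as deposited for peaks, and whether these count from 0 or 1 is not stated.

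The peaks, gene lists, motifs and tests were chosen with earlier results of these data known. Named peaks have a mean of at least 50. They are the 10 largest called rises and falls without overlap between NTC and all hairpin libraries, the first 5 each way per hairpin and 3 each way between hairpins, the 5 strongest, the 5 with most genes, up to 2 each way per list by adjusted p, and the textbook pairs. Not all are described, and some are not reported here. Alternatives were 3 other scalings, 2 pseudocounts, 2 filters, the variance model, weights, a replicate block, each library left out, and radii of 500 and 2000 bases. Values computed with Python 3.11.15 and pandas 2.3.3.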

Additional observations from a re-analysis of the deposited data

Results flagged for a closer look

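At 5 shared-end peaks the hairpins were called against NTC in opposite directions by limma. At each the difference between #4 and #2 also passed (limma, Benjamini-Hochberg over all peaks), as it did at all 575 such peaks of the series. Choosing peaks called on opposite sides of NTC all but fixes that outcome, so it adds no support. They were singled out after their values were seen.

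The log2 difference of #4 against #2 was 1.26 at the peak of Fkbp10, a collagen prolyl isomerase, and P3h4, a collagen hydroxylation cofactor (chr11:100414470-100414971; adjusted p = 2.52e-11). Its counts were 220.2, 194 and 199 in NTC, 112, 123.2 and 134 with #2 and 325, 298 and 263 with #4, with #2 below and #4 above every NTC library. Both genes act in collagen folding and modification in the endoplasmic reticulum. The difference was 1.21 at Peg3 and Usp29, described above.

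Between the far ends of Dhps, the first enzyme of hypusine synthesis on eIF5A, and Wdr83, a WD-repeat scaffold, the difference was -0.83 (adjusted p = 3.8e-10). Its counts were 447, 462 and 445 in NTC, 595, 517 and 647 with #2 and 351, 330.3 and 304 with #4, the reverse order. Jmjd4, a hydroxylase of a translation termination factor, and Snap47, a SNARE protein, differed by -0.79 (adjusted p = 6.14e-10), from 399, 429.6 and 432 in NTC to 626, 574 and 608 with #2 and 376, 347 and 326 with #4. The smallest difference of the 5 was 0.24 at the predicted genes Gm20783 and LOC108167694 (adjusted p = 7.58e-05).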

How the results depend on the processing

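In the order higher, lower and median log2, equal totals gave 131, 923 and -0.14 for both hairpins averaged, 92, 988 and -0.17 for #2, and 154, 709 and -0.11 for #4. Quantile scaling gave 101, 975 and -0.14, then 84, 1034 and -0.17, and 98, 746 and -0.11. Cyclic loess gave 108, 963 and -0.14, then 91, 1014 and -0.17, and 102, 750 and -0.11. The median over all peaks was -0.09 with equal totals, which gave 309 higher in #4 against #2. Without a variance trend higher and lower calls were 159 and 399 (mean), 101 and 411 (#2), 125 and 182 (#4) and 36 and 23 (#4 against #2). With both ends within 2000 bases (2984 peaks, more by construction) higher calls were 459 (mean), 392 (#2), 455 (#4) and 336 (#4 against #2), lower calls 979 (#2) and 117 (#4 against #2), and the NTC level 1158. Within 500 bases (1160 peaks) 141 were higher with #2, 136 higher and 16 lower in #4 against #2, and the level was 1733. Other causes were not tested.

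Leaving out 1 library each gave 209 to 286 higher, 461 to 680 lower and medians of -0.07 to -0.06 for both hairpins averaged. The ranges were 154 to 218, 506 to 731 and -0.11 to -0.07 for #2, 215 to 302, 299 (without NTC replicate 3) to 506 and -0.05 to -0.03 for #4, and 111 to 285, 25 to 54 and 0.03 to 0.08 for #4 against #2. Replicate numbers did not pair the samples: deviations of same-numbered libraries correlated at -0.0843 to 0.0335. With the replicate block 270 were higher and 599 lower in the mean of both hairpins, and no count moved by over 1.5 times.

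Of 5775 values at named peaks 5363 kept direction and call, 339 lost the call, 27 gained one and 46 changed sign. In the mean of both hairpins, quantile scaling gave -0.02 at Aldh3b1/Ndufs8, -0.11 at Anxa9/Cers2/LOC115489748, -0.06 at Atm/Npat, -0.12 at Aup1/Htra2, -0.15 at Bbs7/Ccna2, -0.12 at Brca1/Nbr1, -0.09 at Cds2/Pcna, -0.03 at Cfap70/Mrps16, -0.09 at Exosc4/Gpaa1/Oplah, 0.00 at Fto/Rpgrip1l, -0.20 at LOC115486880/Psme3ip1/Rspry1, -0.22 at Nudt21/Ogfod1 and -0.09 at Ranbp1/Trmt2a. For #2 it gave -0.19 at Bbs7/Ccna2, -0.06 at Cds2/Pcna, -0.04 at Cfap70/Mrps16, -0.03 at Cggbp1/Zfp654, -0.02 at Creb3/Tln1, -0.03 at Fto/Rpgrip1l, -0.07 at Khsrp/Slc25a41, -0.16 at LOC115486880/Psme3ip1/Rspry1 and -0.19 at Nudt21/Ogfod1. For #4 it gave 0.00 at Atm/Npat, -0.06 at Aup1/Htra2, -0.11 at Bbs7/Ccna2, -0.12 at Cds2/Pcna, -0.02 at Cfap70/Mrps16 and -0.04 at Exosc4/Gpaa1/Oplah. Cyclic loess gave, in the mean of both hairpins, -0.10 at Anxa9/Cers2/LOC115489748, -0.03 at Atm/Npat, -0.09 at Aup1/Htra2, -0.02 at Bbs7/Ccna2, -0.08 at Brca1/Nbr1, 0.00 at Cds2/Pcna, -0.09 at LOC115486880/Psme3ip1/Rspry1 and -0.10 at Nudt21/Ogfod1. For #2 it gave -0.04 at Bbs7/Ccna2, 0.00 at Cfap70/Mrps16, -0.01 at Cggbp1/Zfp654, -0.02 at LOC115486880/Psme3ip1/Rspry1 and -0.05 at Nudt21/Ogfod1, and for #4 -0.03 at Aup1/Htra2, -0.05 at Cds2/Pcna and -0.01 at Exosc4/Gpaa1/Oplah. Equal totals gave -0.01 at Nudt21/Ogfod1 and 0.00 there for #2.

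The planned count models were not run, because the deposited values are normalized and the lowest nonzero ones stand for 2 or more reads, so that reading 1 step as 1 read, as the depths given here do, was not checked at single reads. Reads outside peaks were not analysed here. Voom weights on the worked-out reads, added after seeing the data, gave 277 higher and 619 lower.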

Other observations

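Peaks inside the genes of a shared end were counted by the call at that end. The 276 higher ends had 871 other peaks inside their genes, of which 26.6% were higher and 12.9% lower (median log2 fold change 0.04). The 614 lower ends had 1607, with 22.1% higher and 19.3% lower (-0.02). The 901 ends without a call had 2571, with 21.7% higher and 14.1% lower (0.00). Inner peaks of one gene share that gene, so these are descriptions without a test. Over all 35091 tested peaks inside genes, 24.3% were higher and 13.9% lower (0.02).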
